A study of Mus musculus with 3 samples.

Results

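The 5 genes described here carry glutathione through its life in the cell: Gclc and Gclm for synthesis, Slc7a11 for supply of its precursor, Gsr for recycling and Abcc1 for export. They were chosen by the calls and scores that the 2 summit lists give near them, and the summits of each were taken as those inside 1 fixed window of the mouse build mm9. The windows lay on chromosome 9 from 77550000 to 77690000 (Gclc), on chromosome 3 from 121898000 to 122020000 (Gclm) and from 50118000 to 50300000 (Slc7a11), on chromosome 8 from 34713000 to 34855000 (Gsr) and on chromosome 16 from 14311000 to 14525000 (Abcc1). They held 3 of the 182 summits called in vehicle-treated cells and 8 of the 1246 called after diethyl maleate (DEM). A summit is the base of highest signal in a peak called from chromatin immunoprecipitation sequencing (ChIP-seq). Their presence, scores and ranks are therefore descriptions, and no test was made on them.

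The cells were mouse embryonic fibroblasts of the genotype MafF-/-::MafG-/-::MafK-/-, which carried the tethered Nrf2-MafG construct (written T-N2G in the sample titles). Both conditions share these deletions and the construct. Chromatin from cells given vehicle or 100 µM DEM for 4 hours was precipitated with an antibody against MafG, with 1 library for each condition. There was also 1 input library, which had no summit list among the 2 read here. The promoter that drives the construct, and whether the cells are 1 clone, were not stated in the labels, and cells without the construct were not analysed here. With 1 library a condition and an unknown read depth, the values carry no replicate error and the conditions were not tested against each other.

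Nrf2 is the transcription factor of the electrophile and oxidative stress response, and it needs a small Maf partner to bind its DNA motif, the antioxidant response element. In unstressed cells Keap1 holds Nrf2 for degradation, and electrophiles relieve this. Glutathione is the main thiol antioxidant of the cell, and DEM is an electrophile that is conjugated to glutathione and depletes it. All 5 genes are known Nrf2 targets.

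The promoters of Gclm and Slc7a11 are shown because only these 2 of the 5 genes had a promoter sequence at hand. None was at hand for Gclc, Gsr or Abcc1. The Gclm window had a summit in both conditions and the Slc7a11 window only with DEM. Both stretches are the 250 bases before the gene's start from RefSeq in build GRCm38.p6. Capitals mark the match to TGACNNNGC, the core of the antioxidant response element, searched on both strands (as GCNNNGTCA on the other strand) with no other motif.
Gclm, GRCm38.p6 chr3:122245307-122245556, plus strand: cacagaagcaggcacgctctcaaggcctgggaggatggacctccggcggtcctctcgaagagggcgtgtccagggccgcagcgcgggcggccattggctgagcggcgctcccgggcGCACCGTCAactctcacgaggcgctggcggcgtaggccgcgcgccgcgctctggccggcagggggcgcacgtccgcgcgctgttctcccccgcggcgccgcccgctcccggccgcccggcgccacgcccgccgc
Slc7a11, GRCm38.p6 chr3:50443614-50443863, minus strand: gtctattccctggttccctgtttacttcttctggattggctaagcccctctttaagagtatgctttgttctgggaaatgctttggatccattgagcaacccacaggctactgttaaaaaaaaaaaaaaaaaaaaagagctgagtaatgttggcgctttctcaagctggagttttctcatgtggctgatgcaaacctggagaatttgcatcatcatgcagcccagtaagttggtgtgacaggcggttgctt
The Gclm promoter held 1 match, from 134 to 126 bp before the start, which reads TGACGGTGC on the minus strand. The Slc7a11 promoter held 0 matches, which says only that these letters are not in this window. Of 32851 promoter stretches of the same length in the table, 10.2% held at least 1 match. The Gclm stretch was 78.4% G and C and the Slc7a11 stretch 43.2%, against a median of 52.4% over all stretches. The summits are in mm9 and the promoters in GRCm38.p6, so whether a summit lies in either stretch was not determined.

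All 5 windows held a summit with DEM and 3 of them, those of Gclc, Gclm and Abcc1, also held one with vehicle. For reference, the genome was cut into 18210 tiles of 142 kb, the median width of the windows. Of these, 6.06% held a DEM summit and 0.983% a vehicle summit. A further reference is the share of tiles with a DEM summit and no vehicle summit, the pattern of Slc7a11 and Gsr, which was 5.08%. The tiles include regions without genes and the windows differ in width, from 122 to 214 kb. As the genes were chosen with these calls known, nothing is read from the difference.

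**Figure D1:**
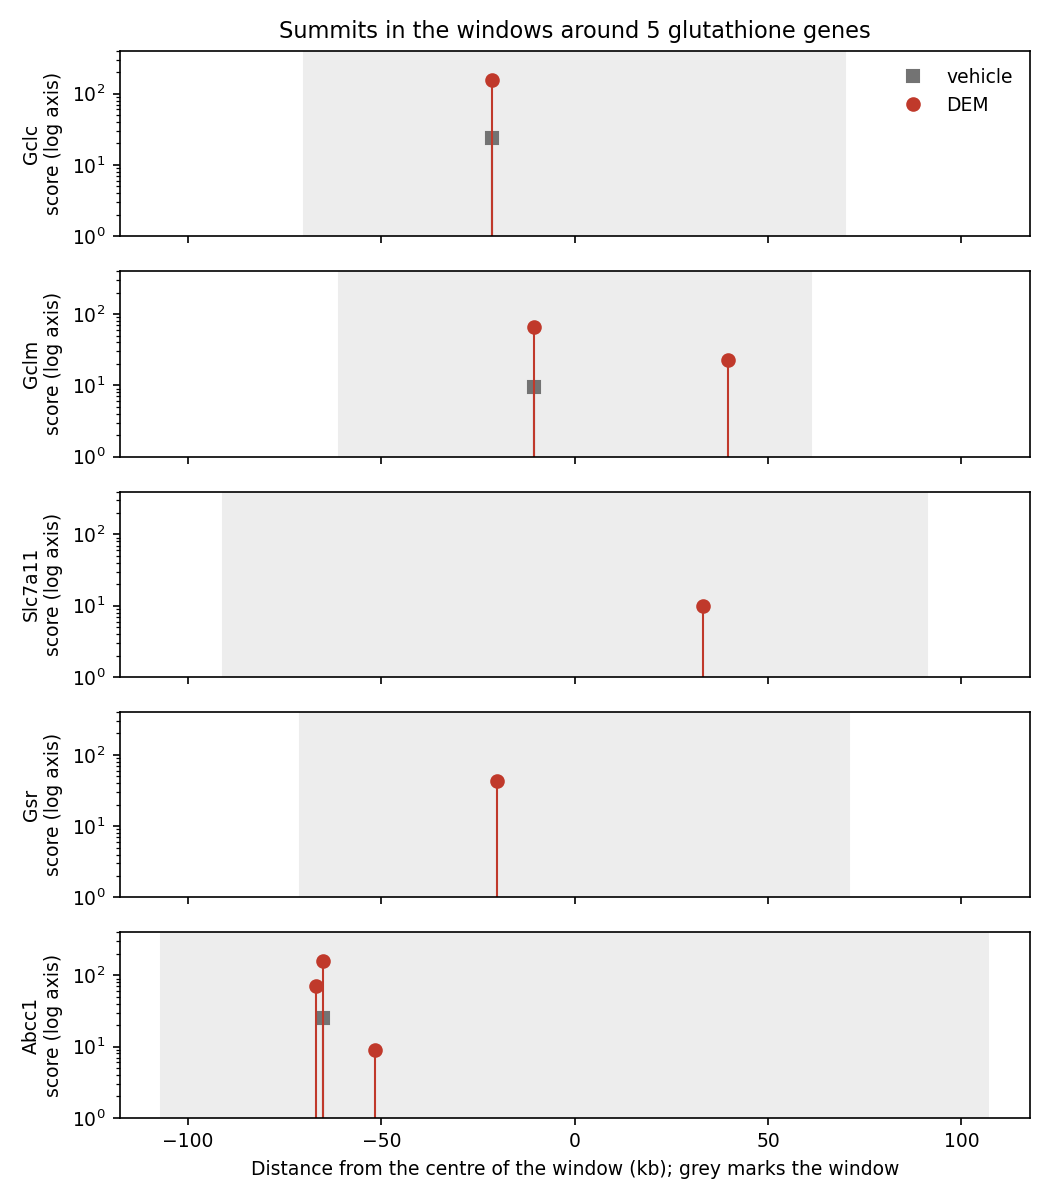
Summits in the window of each gene. The horizontal axis is the distance from the centre of the window in kb, the vertical axis the authors' score (−log10 of a p or q value, log axis), grey squares are vehicle summits and red circles DEM summits. Gclc, Gclm and Abcc1 each have 1 vehicle summit, which stands at a DEM summit, and Slc7a11 and Gsr have none.

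Gclc encodes the catalytic subunit of glutamate-cysteine ligase, the rate-limiting enzyme of glutathione synthesis. Its window held a single site in both conditions, on chromosome 9. The vehicle summit stood at 77598571 with a score of 23.8 and ranked 32 of 182. The DEM summit stood 14 bp away, at 77598557, with a score of 156.4 and rank 33 of 1246. The score is the peak caller's own value for each peak. It rises with sequencing depth, so scores and ranks are read within a list and not as a change between lists. The next DEM summit on the chromosome lay 441 kb away, at 78039636. RefSeq places no other protein-coding gene within 50 kb of Gclc.

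Gclm encodes the modifier subunit of the same ligase, which raises its catalytic efficiency. Its window held 1 vehicle summit and 2 DEM summits on chromosome 3. The vehicle summit, at 121948562, scored 9.55, and the DEM summit 4 bp away, at 121948566, scored 65.4. They ranked 95 of 182 and 136 of 1246. However, 6 other vehicle summits had the same score as the first, so its rank stands for 95 to 101. The DEM score was shared with 2 other DEM summits, so that rank stands for 136 to 138. The windows of both subunits of the ligase thus held a site in both lists, and the site in the Gclc window stood higher in each. The second DEM summit of the Gclm window lay 50.1 kb further on, at 121998665, with a score of 22.4 and rank 441, and no vehicle summit stood closer to it than 50.1 kb. RefSeq places Dnttip2 within 50 kb of Gclm, so the summits of this window are named after it and are not assigned to either gene.

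Slc7a11 encodes the transport subunit of the cystine/glutamate antiporter (xCT), which brings in the cystine from which the cysteine of glutathione is made. Its window held 0 vehicle summits and 1 DEM summit, on chromosome 3 at 50242162. The score was 9.91, below the median of the DEM list (15.2), and the rank was 845 of 1246, shared with 26 other summits up to rank 871. Of the 5 genes, it had the lowest top score with DEM. The nearest vehicle summit lay 2923 kb away, at 53165345, and the nearest other DEM summit 1233 kb away, at 51474861.

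Gsr encodes glutathione reductase, which uses NADPH to turn oxidised glutathione back into its reduced form. Its window also held 0 vehicle summits and 1 DEM summit, on chromosome 8 at 34763974. This summit scored 42.5 and ranked 238 of 1246, a score shared with 4 others. It stood 82nd by score among the 1066 DEM summits without a vehicle match, and 23 of the 180 shared sites had lower DEM scores. The nearest vehicle summit lay 1432 kb away, at 36195566. RefSeq places 4 other protein-coding genes within 50 kb of Gsr (Gtf2e2, Ppp2cb, Smim18 and Ubxn8). The site is named after the window and is not assigned to any of these genes. Its distance to the start of Gsr was not measured.

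Abcc1 encodes a membrane pump (MRP1) that exports glutathione conjugates and oxidised glutathione. Its window held the most summits of the 5, with 1 for vehicle and 3 for DEM, on chromosome 16. The vehicle summit at 14352895 scored 24.998 and ranked 30 of 182, and the DEM summit 1 bp away, at 14352894, scored 159.3 and ranked 30 of 1246. It was the highest-scoring summit of the 5 windows in each list, with the Gclc site next.

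A second Abcc1 DEM summit lay 1858 bp from the first, at 14351036, and scored 70.1 (rank 121). It had no vehicle summit of its own, the nearest being the vehicle summit 1859 bp away. Of the 1226 gaps between neighbouring DEM summits on a chromosome, 14 were no wider than 1858 bp. The third Abcc1 DEM summit, at 14366315, lay 13.4 kb beyond the main one and scored 8.92, with rank 895 and 32 other summits at the same score. Tiles with at least 3 DEM summits made up 0.11% of all tiles, and those with at least 2, as in the Gclm window, 0.637%. The Abcc1 window was the widest. RefSeq places Cep20 within 50 kb of Abcc1, so the summits here are named after the window and are not assigned to either gene.

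**Figure D2:**
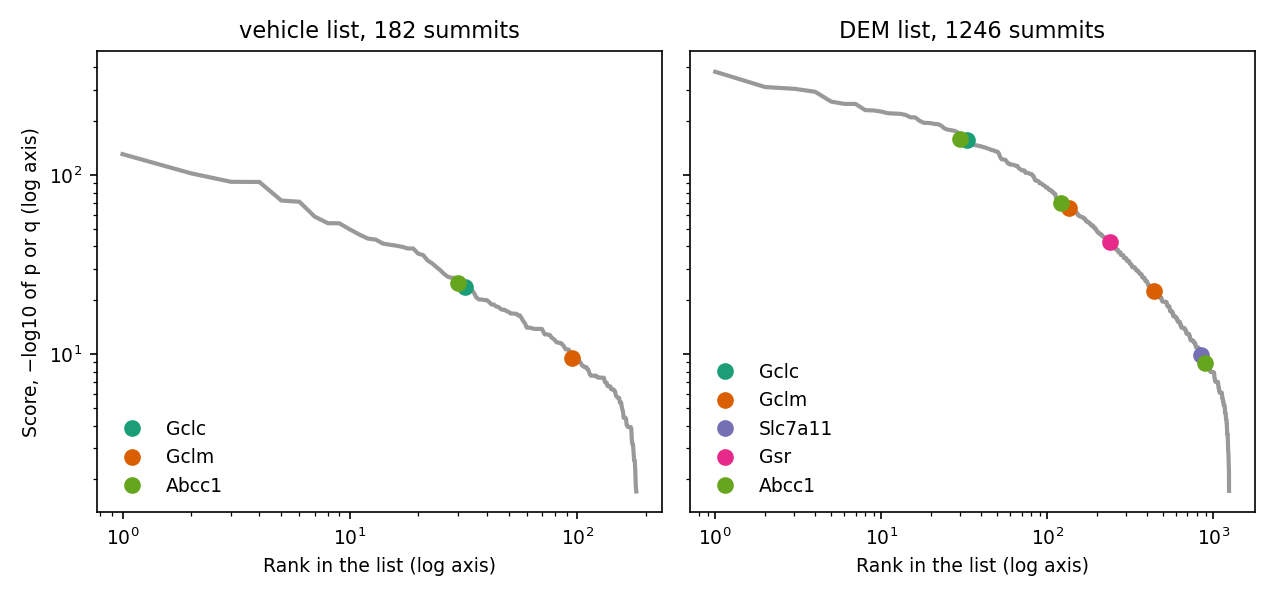
Score (−log10 of a p or q value, log axis) against rank (log axis) for the 182 vehicle summits, left, and the 1246 DEM summits, right, as grey lines, with the summits of the 5 windows as coloured circles. With DEM, Abcc1 and Gclc sites stand at ranks 30 and 33, and the sites of lowest score, of Slc7a11 and Abcc1, at 845 and 895.

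Over the 5 windows the DEM scores ran from 8.92 to 159.3 with a median of 54.0, against 15.2 in the whole DEM list. Of the 8 DEM summits, 6 scored at or above the list median, as did 630 of the 1246 in the list. The 3 among them in the top 10% of the list belonged to Abcc1 (2 summits) and Gclc, where 9.95% of all DEM summits stand by definition. In the vehicle list the 3 scores ran from 9.55 to 24.998, against a list median of 10.6, and that of Gclm was below it. No vehicle summit of these windows stood in the top 10% of its list. The genes were chosen with these scores known, so nothing is read from the comparisons with the whole lists.

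The sites of Gclc, Gclm and Abcc1 were then placed among the 180 sites called in both lists (summits within 100 bp), where both orders have equal length. Abcc1 stood at rank 29 by vehicle score and 28 by DEM score. Gclc stood at rank 31 by both. Gclm stood at rank 94 by vehicle score, tied with 6 others, and at 114 by DEM score. The Abcc1 and Gclc sites thus had nearly the same place in both orders. How far these places would move between replicates was not measured. Summit positions at the 3 sites differed by 14 bp or less, against a median of 17.5 bp over the 180. Of the 180, 13 differed by no more than the 1 bp of Abcc1, 33 by no more than the 4 bp of Gclm, and 80 by no more than the 14 bp of Gclc.

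**Figure D3:**
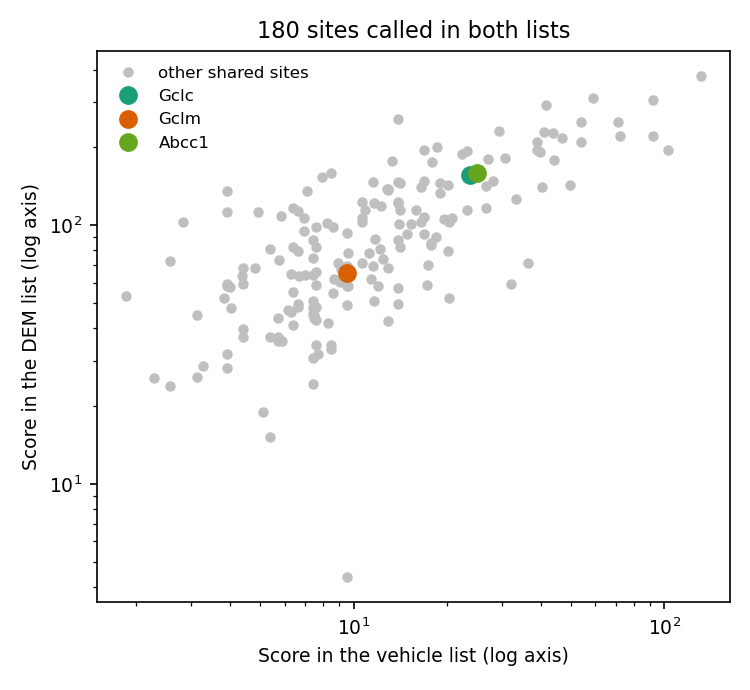
Score in the DEM list against score in the vehicle list (both −log10 of a p or q value, log axes) for the 180 sites called in both, each a circle. Gclc and Abcc1 have vehicle scores of 23.8 and 24.998 and DEM scores of 156.4 and 159.3, and Gclm lies lower on both axes.

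Of the 8 DEM summits, 3 had a vehicle summit within 100 bp, where 14.4% of all DEM summits did. All 3 vehicle summits were matched in turn, where 98.9% of the vehicle list was. The matched share fell with the DEM score over the whole list, so each summit was read within its decile of the DEM scores. The main Abcc1 site and Gclc stood in the highest decile, where 108 of 125 summits were matched (86.4%, exact 95% interval 79.1 to 91.9%). The second Abcc1 summit stood in this decile too and was unmatched. It ranked 16 among the 1066 unmatched DEM summits, and 75 of the 180 shared sites had a lower DEM score. The main Gclm site (matched) and the Gsr site (unmatched) both stood in the next decile, where 51 of 125 were matched (40.8%, exact 95% interval 32.1 to 49.9%). Such intervals cover counting error over summits only.

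The second Gclm summit stood in decile 4, where 4 of 125 were matched. Slc7a11 stood in decile 7, with 0 of 125 matched, and the third Abcc1 summit in decile 8, with 0 of 124. A share of 0 of 125 allows up to 2.91% by its exact 95% interval. The Slc7a11 site thus shared its missing vehicle call with every DEM summit of its decile. The absence of a vehicle call means that no peak passed the peak caller's threshold there. It does not show that the heterodimer was absent from the site.

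**Figure D4:**
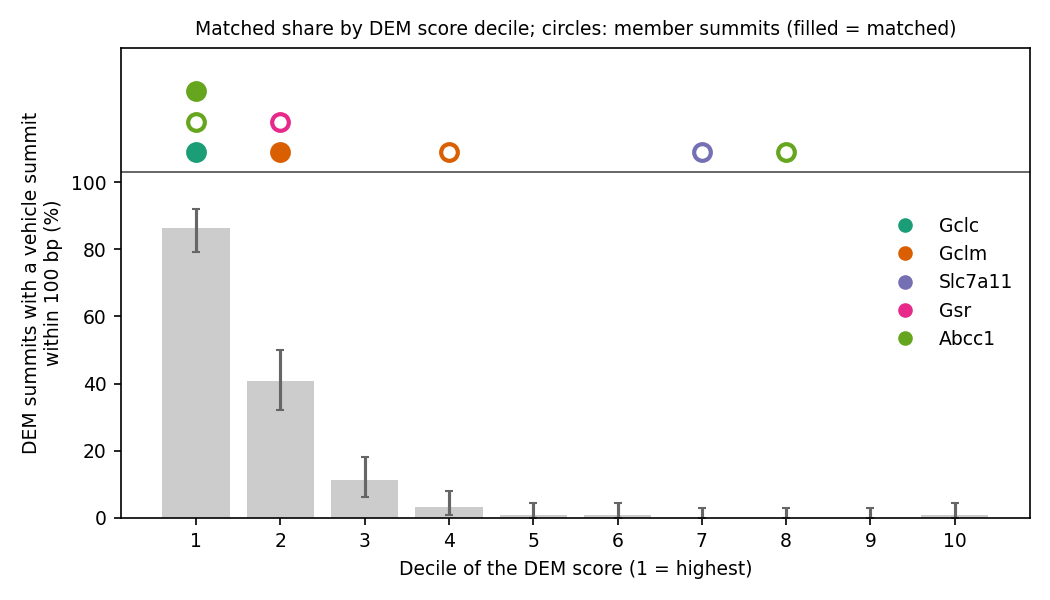
Bars give the percentage of DEM summits with a vehicle summit within 100 bp in each decile of the DEM score (1 is the highest), with exact 95% intervals. Circles above the line mark the decile of each of the 8 summits, filled where matched: Gclc, 1 of 2 Abcc1 summits in the highest decile, and 1 Gclm summit.

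Just outside the windows stood 1 summit. This DEM summit, at 34684899, lay 28.1 kb outside the Gsr window, with a score of 6.42 and rank 1082, and 79.1 kb from the Gsr summit inside it. For the other 4 genes the nearest DEM summit outside lay at least 349.6 kb beyond the window. The closest that a DEM summit inside came to an edge was 21.3 kb, for the second Gclm summit. No vehicle summit outside lay within 474 kb of any window.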

How the data were processed

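Per the submitters' processing notes, the build was mm9 and the tools included MACS2 2.1.1.20160309 and Bowtie2 2.2.9. The authors deposited 1 summit list for each ChIP library, whose scores are −log10 values (of p or of q, which the labels do not say; nor do they give the threshold or the use of the input). Positions are 1-based. The genes, windows and comparisons were chosen with earlier results of these data known. All 5 genes of the rule are named, with every summit in their windows. Summits of the 2 lists no more than 100 bp apart were called matched. Tied scores took the best rank. Tiles ran from base 1 of each chromosome to the last summit of either list. The matching and tiling were tested on simulated positions. RefSeq (GRCm38.p6) was used for neighbouring genes and promoters only. Another 20 glutathione genes were listed but not placed, since gene coordinates in mm9 were not used here. Intervals are Clopper-Pearson. Alternatives covered the match distance, a score minimum, window and tile widths, a shortened DEM list and ranks among shared sites. Software was Python 3.11.15 (pandas 2.3.3, numpy 2.4.6, scipy 1.17.1, and matplotlib 3.10.9 for plots).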

Additional observations from a re-analysis of the deposited data

How the results depend on the processing

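Of 33 alternative values, 29 stayed close to the reported ones (counts and ranks within 1.5 times, shares of tiles within their exact interval), and 11 of the 21 counts did not change. A fall from 3 to 2 genes counted as close, at the limit of 1.5. Some alternatives could hardly move a value. The matched summits lay at most 14 bp apart, and 180 of the 182 vehicle summits were shared. The tally is therefore a weak measure of stability. A score minimum of 10 or 20 removed the Gclm summit from the vehicle list and the Slc7a11 summit and the Abcc1 summit at 14366315 from the DEM list, which left 2 and 4 genes with a summit. Match distances from 50 bp to 1 kb, and the DEM list shortened to 182 summits, left 3 matched summits. Windows shortened by 25 kb at each end lost the second Gclm summit, and windows lengthened by 50 kb gained 1 summit near Gsr. Tiles as wide as the narrowest window held a vehicle summit in 0.845% and a DEM summit in 5.28% of cases, and tiles as wide as the widest window in 1.48% and 8.73%, as wider tiles hold more by construction. Distances to transcription start sites were not run, since gene coordinates in mm9 were not used here. No paired analysis was possible because vehicle and DEM have a single library each. Leaving out a replicate was not possible either. The unknown depth limits every call.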

Other observations

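Many summits had exactly the same score as another in their list, which bears on the ranks of the weaker glutathione sites. The vehicle list held 117 distinct scores for 182 summits, and 97 summits (53.3%) shared theirs. The DEM list held 510 distinct scores for 1246 summits, and 901 summits (72.3%) shared theirs. The Gclc site and the first 2 Abcc1 sites had scores of their own, while the Slc7a11 score was held by 27 summits and that of the Abcc1 summit at 14366315 by 33. The order of such sites within their tie has no meaning.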
